A study of Mus musculus with 12 samples.

Results

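S100 genes encode small proteins, most of which bind calcium. For this report 10 S100 genes known from squamous epithelium and its stroma were followed through oral tumours of the mouse. They were S100a3, S100a4, S100a6, S100a7a, S100a8, S100a9, S100a10, S100a11, S100a14 and S100a16. They were taken by name with no cut on a measured value, though with earlier results of these data known. All 10 were among the 23102 genes measured. The study compared 6 tumours labelled KR, which expressed RAS, with 6 labelled KHR, which expressed RAS and a transgene written iHPV, for which a further label names HPV E6. All 12 tumours formed in the mouth of F1 hybrids of C57BL/6 and FVB after tamoxifen given into the peritoneum, so both groups share the strain, the drug and RAS. The labels do not explain the letters or name the promoter behind a transgene, and they give no age, sex or number of animals. The p-values therefore measure the spread between these tumours, some of which might come from 1 animal. Total RNA of each tumour was put on 1 Affymetrix Mouse Gene 2.0 ST array, and the value of a gene is the median log2 intensity of its probesets (the groups of probes on 1 stretch of an exon). Every change is KHR minus KR on that log2 scale, where 1 unit is a doubling.

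A typical S100 protein binds calcium through a pair of EF-hand loops, works as a dimer and then docks on a partner protein. S100a8 and S100a9 join into calprotectin, which neutrophils carry in bulk and which stressed or inflamed keratinocytes also make. Once released it acts as an alarmin, a danger signal read by Tlr4 with its co-receptor Ly96 and by Ager, the receptor RAGE, and it starves microbes of metal ions. S100a7a is the mouse relative of psoriasin, an antimicrobial protein of keratinocytes. S100a10 and S100a11 dock on annexins at membranes, S100a14 and S100a16 are found in epithelia, S100a3 in the cuticle of hair, and S100a4 and S100a6 in fibroblasts and other motile cells as well as in epithelium.

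The alarmin pair stood apart from the other members by its spread among KR tumours. S100a8 and S100a9 were low on 3 of 6 KR arrays and near the KHR level on the other 3, while all 6 KHR arrays were high. The low and the near arrays are those numbered 1 to 3 and 4 to 6, and as the labels name no batch, a batch that runs with these numbers could not be checked. The mean of S100a8 was 2.12-fold higher in KHR tumours and that of S100a9 2.49-fold, but neither difference passed the test over all genes. The other 8 members differed by at most 0.31 in either direction. No member passed (limma, adjusted p under 0.05), against 3.74% of all genes, 2.71% higher and 1.03% lower. Of those calls 72.4% were higher in KHR tumours, or 56.8% with quantile normalization. Without adjustment 2 of 10 had a p under 0.05 in limma, S100a8 and S100a9, against 15.9% of all genes. The same count was found with the exact permutation test, against 3436 of 23102 genes. That test called 0 genes of the whole table after adjustment. Without KHR 2 the limma count was 4 of 10, against 3602 of 23102 genes. Besides the alarmins it held S100a7a (0.46 ± 0.15, unadjusted p = 0.0108, adjusted p = 0.145) and S100a10 (0.30 ± 0.10, unadjusted p = 0.0122, adjusted p = 0.155). The limma count was 3 when probesets were averaged (against 4441 of 23102 genes) or with median polish (against 4219), with S100a16 as the third. No member had groups without overlap, against 2.67% of all genes. The median change of the members was 0.13, beside 0.0045 over all genes. All 10 members lay above the median level of all genes. In a limma fit of the 11551 genes above that level, 1007 passed and 2764 had an unadjusted p under 0.05. Of the members 0 and 2 did so there. The median change of the 11551 genes was 0.0536.

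The tumours expressed squamous markers: 11 of 11 measured basal keratinocyte genes and 15 of 15 suprabasal ones lay above the median level of all genes, 4.98. This measure does not single out squamous tissue. Of the fibroblast genes 15 of 16 lay above that level, of the skeletal muscle genes 10 of 13 and of the macrophage genes 8 of 12, against 4 of 11 hair shaft genes. The medians of the arrays over all probesets lay between 5.62 and 5.75, and each array's mean correlation with the others of its group lay between 0.9798 and 0.9856. KHR 1 was the only array that correlated as well with the other group (0.9799) as with its own (0.9798), and without it 1085 genes passed in place of 863. Xist, which is transcribed from the silenced X of female cells, was high on KR 4, KR 6 and KHR 3 to 6 and low on the other 6 arrays, so sex and group overlap in part. The tissue is bulk tumour, in which fewer cells of a kind and less RNA per cell cannot be told apart.

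**Figure D1:**
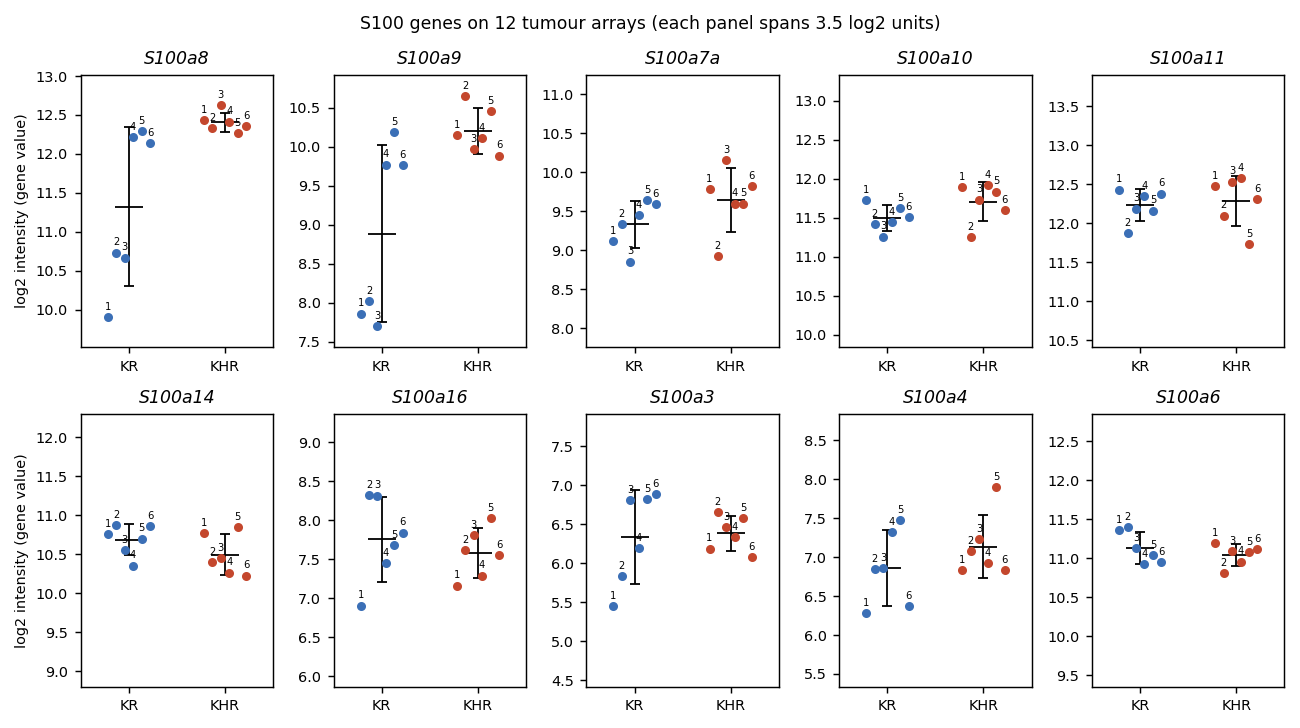
Log2 intensity of each S100 gene (y axis) on the 6 KR arrays (blue) and 6 KHR arrays (red), with replicate numbers beside the points and bars for the mean and SD of each group. S100a8 and S100a9 lie low on KR 1, KR 2 and KR 3 and high on the other 9 arrays, while the other 8 genes overlap widely.

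S100a8, the smaller chain of calprotectin, stood at 9.91, 10.74 and 10.67 on KR 1, KR 2 and KR 3. It stood at 12.22, 12.29 and 12.14 on KR 4, KR 5 and KR 6. On the KHR arrays its lowest value was 12.27, its median 12.39 and its highest 12.63. Only 1 KHR array, KHR 5, lay below any KR array, and 5 of 6 KR arrays lay below all of them, KR 4 and KR 6 by little and KR 1 by more than 2 log2 units. The group means were 11.33 ± 1.02 and 12.41 ± 0.12 (SD, n = 6 each), a difference of 1.08 ± 0.36 (SE; 95% interval 0.30 to 1.86; limma adjusted p = 0.131; exact permutation p = 0.00433 before adjustment). The SD among KR tumours was 8.15 times that among KHR tumours. It was larger than that of 99.7% of all genes within KR, and the KHR SD was larger than that of only 15.2% of genes within KHR. The difference in spread was not tested.

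S100a9, the larger chain, followed nearly the same arrays. It stood at 7.86, 8.02 and 7.70 on KR 1, KR 2 and KR 3, and at 9.77, 10.18 and 9.76 on KR 4, KR 5 and KR 6. Its KHR values ran from 9.88 through a median of 10.12 to 10.65. Here too 5 of 6 KR arrays lay below all KHR arrays, KR 5 lay among them, and only 2 KHR arrays lay above all KR arrays. The means were 8.88 ± 1.14 and 10.20 ± 0.29 (SD, n = 6 each), a difference of 1.32 ± 0.41 (SE; 95% interval 0.43 to 2.20; limma adjusted p = 0.105; exact permutation p = 0.0152 before adjustment). S100a9 passed when probesets were averaged (1.29 ± 0.33, adjusted p = 0.0311) and without KR 5 (1.58 ± 0.38, adjusted p = 0.0437). Over all alternatives its adjusted p ran from 0.0311 to 0.242, and that of S100a8 from 0.0743 to 0.274, with the sign kept in 24 of 24 for each gene.

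The probesets of the alarmins moved alike. All 4 probesets of S100a8 were higher in KHR tumours, by 0.92 to 1.10, and all 4 of S100a9 by 1.07 to 1.46. Tested probeset by probeset, 1 of S100a9 passed (adjusted p = 0.0263), and so did 1.02% of all probesets. Among the 47 probesets of the 10 members it was the only one past the threshold. S100a14 had 6 of 6 probesets lower, with changes from -0.52 to -0.12, and the remaining 7 members had probesets on both sides of 0.

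**Figure D2:**
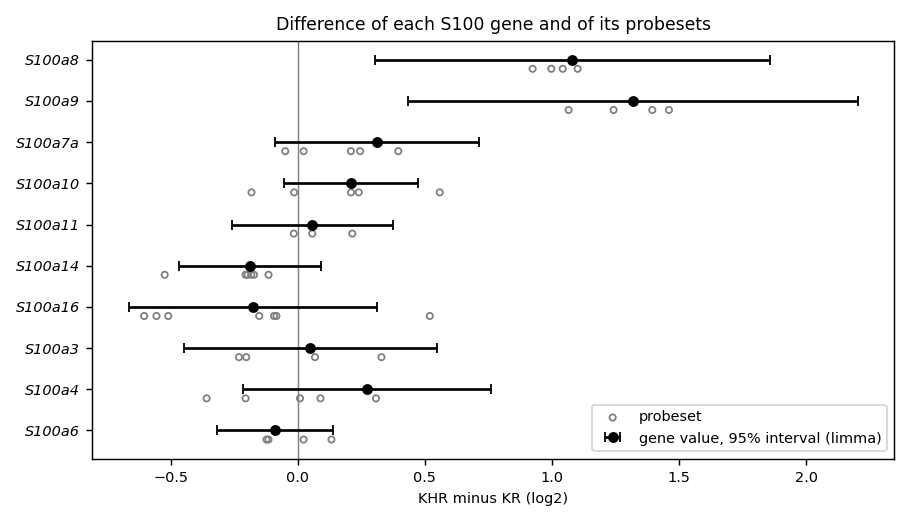
Difference KHR minus KR in log2 units (x axis) for each S100 gene, with the 95% interval from limma (black) and the difference of each probeset (open circles). The intervals of S100a8 (0.30 to 1.86) and S100a9 (0.43 to 2.20) lie above 0, and those of the other 8 genes include it.

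S100a8 and S100a9 lie next to each other on chromosome 3, on opposite strands, with S100a7a as the next measured gene on the other side of S100a8. The 250 bases before the start of each of these 3 genes are shown because these neighbours had the same 3 lowest KR arrays, with gaps that were wide in S100a8 and S100a9 and narrow in S100a7a. They are from RefSeq, build GRCm38.p6, printed 5′ to 3′ in the direction of the gene, with each match to a searched motif in capitals. The S100a8 stretch is chr3:90668821-90669070, + strand, that of S100a9 chr3:90695722-90695971, - strand, and that of S100a7a chr3:90654052-90654301, + strand.
S100a8: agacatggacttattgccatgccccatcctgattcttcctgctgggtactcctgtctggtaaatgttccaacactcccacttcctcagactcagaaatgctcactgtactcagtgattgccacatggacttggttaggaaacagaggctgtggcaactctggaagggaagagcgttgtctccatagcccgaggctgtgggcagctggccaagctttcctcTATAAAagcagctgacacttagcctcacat
S100a9: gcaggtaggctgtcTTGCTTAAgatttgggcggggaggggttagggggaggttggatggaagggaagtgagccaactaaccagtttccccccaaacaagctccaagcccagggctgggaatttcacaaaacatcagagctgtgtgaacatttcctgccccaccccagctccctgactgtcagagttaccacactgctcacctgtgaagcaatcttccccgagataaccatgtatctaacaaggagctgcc
S100a7a: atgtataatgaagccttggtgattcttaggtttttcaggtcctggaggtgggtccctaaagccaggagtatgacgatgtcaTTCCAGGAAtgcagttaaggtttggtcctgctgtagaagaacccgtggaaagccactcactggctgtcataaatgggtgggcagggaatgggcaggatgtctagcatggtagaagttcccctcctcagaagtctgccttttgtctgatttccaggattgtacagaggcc

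Of 4 motifs searched on both strands, each of these stretches held 1, and not the same one. The stretch of S100a8 held the TATA box, TATAAA, starting at position -30, as did 12.4% of 32851 such stretches in the table. That of S100a9 held the C/EBP motif TTGCNNAA at position -236, present in 9.56% of all. The stretch of S100a7a held the STAT motif TTCNNNGAA at -169, present in 7.02%. The AP-1 motif TGANTCA, present in 6.75%, was in none of these 3, while S100a11 held 2 matches, at -136 and -38, with the same letters, TGAGTCA. A match is a run of letters and not a shown site, and a missing match says only that these letters are not in the window. The table held stretches for 8 of the 10 members, S100a10 and S100a14 being the others, and several for S100a3 and S100a16.

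The next question was which other genes shared the low KR arrays. As a measure of likeness, the mean of each group was subtracted and Pearson's r was taken over the 12 arrays against every gene above the median level. It is given as a description with no p, since it rests largely on KR 1 to 3. Nearest to S100a8 were Sprr2e, a cornified envelope gene (r = 0.96), Gk, glycerol kinase (0.95), Slc5a1, a glucose transporter (0.94), Rtcb, a tRNA ligase (0.93), and Defb3, a beta-defensin (0.93). Nearest to S100a9 were Sprr2b (0.93), Gk (0.92), Gm6337 (0.92), Pdcl (0.91) and Chil1, a chitinase-like secreted protein (0.91). S100a9 was the 9th nearest gene to S100a8, and S100a8 the 7th nearest to S100a9 (r = 0.90). Sprr2 genes are near-identical copies, so which of them carries the signal is uncertain.

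These companions did not differ alike between the groups. Chil1 stood at 9.10, 8.06 and 9.08 on KR 1 to 3, at 11.13 to 11.51 on KR 4 to 6 and at 11.04 to 11.90 on the KHR arrays, and its difference of 1.45 ± 0.53 did not pass (limma adjusted p = 0.173). Defb3 stood at no more than 11.15 on KR 1 to 3, at 12.27 to 12.50 on KR 4 to 6 and at 11.63 to 12.11 in KHR tumours, so the highest arrays were KR ones, and the group difference was 0.18 ± 0.26 (adjusted p = 0.817). Gk passed: all 6 KHR arrays, from 9.98 to 10.37, lay above all KR arrays, from 8.78 to 9.91, a rise of 0.86 ± 0.19 (adjusted p = 0.0239). Sprr2e differed by 0.62 ± 0.26 (adjusted p = 0.237).

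**Figure D3:**
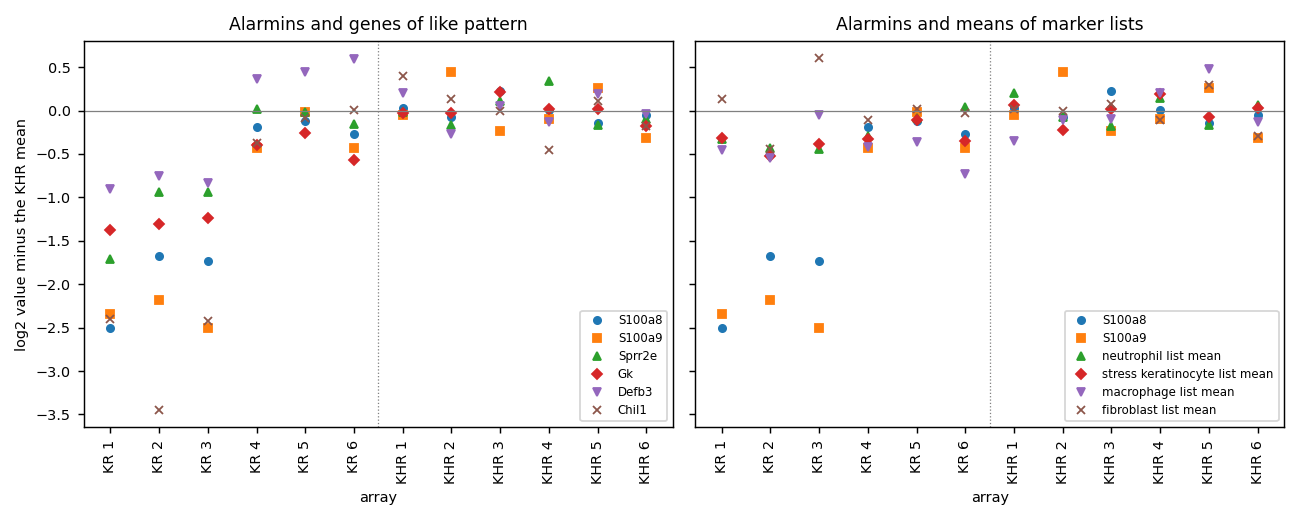
Log2 value minus the KHR mean (y axis) on each array, for S100a8 and S100a9 with 4 of the genes nearest to them (left) and with the means of 4 marker lists (right). On KR 1 to 3, where S100a8 was 9.91 to 10.74 and S100a9 7.70 to 8.02, both alarmins lie lower than the 4 list means. A mean over a list is apt to vary less than 1 gene.

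Neutrophils are the best known carriers of calprotectin. The mean of their markers varied less over the 12 arrays than the alarmins. Most of these markers lay at low levels, and a mean of 15 genes is apt to vary less than 1 gene. That comparison therefore cannot tell the source of the alarmins. The mean of 15 neutrophil genes was 4.59 to 4.70 on KR 1 to 3, the 3 lowest of the 12 arrays, 4.73 to 5.07 on KR 4 to 6 and 4.85 to 5.23 on the KHR arrays. Of these genes 1 rose and none fell: Cxcr2, a chemokine receptor, by 0.83 ± 0.14 (limma adjusted p = 0.00488, and 0.55 with the mean over probesets). Cxcr2 stood at 8.02 to 8.47 on KR 1 to 3, at 8.55 to 8.92 on KR 4 to 6 and at 9.11 to 9.46 in KHR tumours. Only 5 of 15 lay above the median level of all genes, and Ly6g, the surface marker, stood at 4.68 to 5.11 in KR and 4.37 to 5.58 in KHR tumours. The mean was highest on KR 6 within KR and on KHR 1 within KHR. Ltf, another of the 15, stood at 8.77 and 7.47 on those arrays and at 3.83 to 6.38 on the others. The median change of the list was 0.15, and over all genes 2.71% rose and 1.03% fell. The part of neutrophils in the alarmin values was not tested.

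Stress keratinocyte genes, which squamous cells switch on in wounds and tumours, overlapped between the low KR arrays and the others. Their mean was 11.05 to 11.26 on KR 1 to 3, 11.23 to 11.47 on KR 4 to 6 and 11.36 to 11.76 in KHR tumours. Of 10 measured, 2 rose and none fell, against 2.71% and 1.03% of all genes. The median change of the 10 was 0.09. An unadjusted p under 0.05 was found for 3 of them in limma and 5 in the exact permutation test. Over all genes these counts were 3662 and 3436 of 23102. Lcn2, an iron-trapping antimicrobial protein, rose by 1.69 ± 0.30 (limma adjusted p = 0.0065), or by 0.95 when probesets were averaged, with all 6 KHR arrays above all KR arrays. Il1a, a cytokine of damaged epithelium, rose by 0.81 ± 0.17 (adjusted p = 0.0178), again without overlap.

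Animal sex moved with the alarmins in part. On the 6 arrays of high Xist, 2 KR and 4 KHR, S100a8 averaged 12.18 and 12.42, and S100a9 9.77 and 10.10. On the 6 of low Xist, 4 KR and 2 KHR, S100a8 averaged 10.90 and 12.38, and S100a9 8.44 and 10.40. KR 1 to 3 were all of low Xist, but so was KR 5, which was high in both alarmins. With the Xist level as a covariate the differences were 0.89 ± 0.36 for S100a8 and 1.16 ± 0.43 for S100a9 (limma adjusted p = 0.260 and 0.214). Its part was not tested beyond this. With this covariate, or with the mean of skeletal muscle genes, the calls given below for Tchh, Ppl, Tgm1, Col1a2, Il17rc, Ms4a7 and Mertk were lost, and that of Tlr4 with the muscle mean. With Xist the differences kept their sign and most of their size: Tchh was at 1.02, Ppl at -0.39, Tgm1 at -0.47, Col1a2 at -0.75, Il17rc at -0.50, Ms4a7 at 1.06 and Mertk at 0.51.

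Because the arrays fell into 2 clusters, no correlation of the alarmins was tested over all 12, and the likeness of 0.90 between S100a8 and S100a9 given above, which rests largely on KR 1 to 3, has no test. The 8 relations between members and markers had been planned over all 12 arrays. Of these, 5 concern the alarmins and were moved, after the values were seen, to the 6 KHR arrays alone. There S100a8 varied little (SD 0.12) and S100a9 more (SD 0.29). S100a8 against S100a9 gave r = -0.58 and rho = -0.54 there (exact permutation p = 0.233 and 0.297; adjusted p = 0.622 for r; r = -0.44 without the 2 arrays farthest from the median). The other 4 did not pass either, and each of them moved without the 2 arrays farthest from the median, which leaves 4 arrays. With the stress keratinocyte mean, S100a9 gave r = -0.76 (exact permutation p = 0.0792, adjusted p = 0.317), and 0.64 without those arrays. When probesets were averaged this r was -0.81 (exact permutation p = 0.0347, adjusted p = 0.278). With the neutrophil mean, S100a9 gave r = -0.34 and then 0.61, and S100a8 gave -0.07 and then 0.96 (exact permutation p = 0.0417, the smallest that 4 arrays allow, adjusted p = 0.333). S100a8 with the stress keratinocyte mean gave 0.38 and then 0.80.

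S100a7a, the psoriasin relative, did not separate the groups. Its KR values ran from 8.86 through a median of 9.39 to 9.65, and its KHR values from 8.93 through 9.69 to 10.15. KHR 1, KHR 3 and KHR 6 lay above all KR arrays and KHR 2 near the bottom. KR 1 to 3, at 8.86 to 9.34, were the 3 lowest KR arrays here too. The difference was 0.31 ± 0.19 (SE; 95% interval -0.09 to 0.71; limma adjusted p = 0.466). Of its 5 probesets 4 were higher and 1 lower.

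The annexin partners overlapped between the groups. S100a10, the partner of annexin A2 at the plasma membrane, ran from 11.26 through 11.47 to 11.73 in KR tumours and from 11.25 through 11.78 to 11.92 in KHR tumours. KHR 1, 3, 4 and 5 lay above every KR array, KHR 6 lay within the KR range, and KHR 2 below it. The difference was 0.21 ± 0.12 (95% interval -0.05 to 0.47; limma adjusted p = 0.455). S100a11, the partner of annexin A1, ran from 11.88 through 12.27 to 12.43 in KR tumours and from 11.74 through 12.39 to 12.58 in KHR tumours, a difference of 0.06 ± 0.15 (interval -0.26 to 0.37; adjusted p = 0.913). Its KHR values held both the lowest and the highest of all 12 arrays.

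The annexins themselves gave 0 calls among 10 measured, with 1 at an unadjusted p under 0.05 in limma and 1 in the exact permutation test. That was Anxa8, an annexin of squamous epithelium, at 0.50 ± 0.14 (limma adjusted p = 0.0649). It passed when probesets were averaged (adjusted p = 0.0103), with median polish (0.0229), and without KR 4 or KHR 1 (0.0391 to 0.141 over the arrays left out). It also passed with trended and robust eBayes (limma adjusted p = 0.0377) and among genes above the median level (0.0466). The median change of the annexins was -0.02. S100a10 and Anxa2 varied together only loosely over the 12 arrays (r = 0.58, rho = 0.50; permutation p = 0.0339 and 0.0992; adjusted p = 0.271 and 0.594). The r was 0.75 within KR, 0.48 within KHR, and 0.43 without the 2 arrays farthest from the median of S100a10.

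The epithelial members overlapped between the groups. S100a14, found at the membranes of epithelial cells, ran from 10.35 through 10.73 to 10.87 in KR and from 10.22 through 10.43 to 10.85 in KHR tumours, a difference of -0.19 ± 0.13 (95% interval -0.47 to 0.09; limma adjusted p = 0.545). KHR 1 and KHR 5 lay with the upper KR arrays and KHR 4 and KHR 6 below all of them. S100a16 ran from 6.91 through 7.76 to 8.33 in KR and from 7.16 through 7.59 to 8.03 in KHR tumours, a difference of -0.18 ± 0.23 (interval -0.66 to 0.31; adjusted p = 0.788). Of its 7 probesets 6 were lower and 1 higher, with changes from -0.60 to 0.52, so its gene value rests on probesets that do not all move together.

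S100a3, the cysteine-rich S100 protein of hair cuticle, ran from 5.45 through 6.51 to 6.88 in KR tumours and from 6.08 through 6.40 to 6.65 in KHR tumours. KR 1 and KR 2 lay below every KHR array and KR 3, KR 5 and KR 6 above every one. The difference was 0.05 ± 0.23 (95% interval -0.45 to 0.55; limma adjusted p = 0.957), and its sign changed in 8 of 24 alternatives. Beside it, 4 of 11 hair shaft genes lay above the median level of all genes and none passed, with 2 at an unadjusted p under 0.05 in limma and 2 in the exact permutation test. The hair shaft gene with the smallest p was Padi3, an enzyme of the hair follicle, at 0.51 ± 0.15 (adjusted p = 0.0800; it passed when probesets were averaged, 0.0270, and without KR 1, 0.0393), and the list mean was 4.69 to 5.45 in KR and 4.84 to 5.59 in KHR tumours.

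The mesenchymal members did not differ beyond their spread. S100a4, also called fibroblast-specific protein, ran from 6.28 through 6.85 to 7.47 in KR and from 6.83 through 7.0 to 7.89 in KHR tumours, a difference of 0.27 ± 0.23 (95% interval -0.22 to 0.76; limma adjusted p = 0.638). KR 1 and KR 6 were the lowest arrays and KHR 5 the highest. Of the 5 probesets of S100a4, 3 were higher and 2 lower, with changes from -0.36 to 0.31. Its difference was -0.03 when probesets were averaged and -0.03 with median polish. S100a6, calcyclin, had the smallest range of the members over the 12 arrays, from 10.93 through 11.08 to 11.40 in KR and from 10.81 through 11.08 to 11.20 in KHR tumours. Its difference was -0.09 ± 0.11 (interval -0.32 to 0.14; adjusted p = 0.761).

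Fibroblast markers did not follow these members over all arrays. Of 16 measured, Fbln1, a matrix protein, rose by 0.92 ± 0.19 (limma adjusted p = 0.0147; 0.54 with median polish), and Col1a2, a collagen I chain, fell by 0.80 ± 0.18 (adjusted p = 0.0220; 0.0578 at most on leaving out 1 array, lost without KHR 4 or KHR 6; 0.0507 with median polish). The median change of the list was -0.18, and over all genes 2.71% rose and 1.03% fell. S100a4 against the fibroblast mean gave r = 0.17 and rho = 0.13 over 12 arrays (permutation p = 0.601 and 0.697; adjusted p = 0.801 and 0.917). Within KHR the r was 0.86 and within KR -0.11, and without the 2 arrays farthest from the median it was 0.05. S100a6 against the same mean gave r = -0.11 and rho = 0.18 (permutation p = 0.741 and 0.572; adjusted p = 0.847 and 0.915), with -0.19 within KR, 0.03 within KHR and 0.29 without the 2 farthest arrays.

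Macrophages, another source of S100a4 and of the alarmins, had 12 measured genes. Of these 2 rose and none fell, against 2.71% and 1.03% of all genes. The median change of the 12 was 0.37. The smallest of the 12 changes was 0.10, so all of them were positive. An unadjusted p under 0.05 was found for 5 of the 12 in limma, against 15.9% of all genes, and for 3 in the exact permutation test. Ms4a7, a macrophage membrane protein, was higher by 1.15 ± 0.29 (limma adjusted p = 0.0433; 0.47 and adjusted p = 0.134 with median polish), and Mertk, a receptor that clears dead cells, by 0.48 ± 0.12 (adjusted p = 0.0378; 0.18 and adjusted p = 0.327 with median polish). Both calls were lost on leaving out most single arrays, Ms4a7 on 9 of them (adjusted p up to 0.0982) and Mertk on 10 (up to 0.0858). The macrophage mean was 5.17 to 5.85 in KR and 5.54 to 6.37 in KHR tumours, highest on KHR 5, where S100a4 was highest too. The skeletal muscle mean was also highest on KHR 5, at 8.19, and with it as a covariate the difference of S100a4 was 0.01 ± 0.16 (limma adjusted p = 0.990) in place of 0.27. Without the covariate this difference was likewise near 0, at -0.03, when probesets were averaged or with median polish. The part of macrophages was not tested.

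Genes that receive the alarmin signal included some that passed. Of 10 measured receptors and adaptors, 2 rose and 1 fell, against 2.71% and 1.03% of all genes. The median change of the 10 was 0.21. An unadjusted p under 0.05 was found for 5 of the 10 in limma, against 15.9% of all genes, and for 5 in the exact permutation test. Ly96, the co-receptor MD-2, ran from 9.16 through 9.22 to 9.56 in KR tumours and from 9.82 through 10.11 to 10.49 in KHR tumours. All 6 KHR arrays lay above all KR arrays, a rise of 0.85 ± 0.12 (SE; limma adjusted p = 0.00138). Tlr4, the receptor that Ly96 serves, ran the other way, from 6.90 through 7.41 to 7.62 in KR and from 6.36 through 6.60 to 7.18 in KHR tumours. It fell by 0.68 ± 0.15 (adjusted p = 0.0259), but only by 0.33 with the mean over probesets, where it did not pass (adjusted p = 0.0979), and by 0.37 with median polish, where it did. Its call was lost without KR 1, 2, 5 or 6 or KHR 4 or 5, 1 at a time (0.0664 at most).

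Alcam, an adhesion molecule that has been named as a calprotectin receptor, ran from 6.48 through 7.57 to 7.93 in KR and from 8.0 through 9.11 to 9.59 in KHR tumours. It rose by 1.48 ± 0.27 (limma adjusted p = 0.0080), without overlap of the groups. It passed in all 12 fits that left out 1 array.

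Of 13 genes that induce alarmins in keratinocytes, among them interleukin 17 and 22 with their receptors, 1 rose and 1 fell. Over all genes 2.71% rose and 1.03% fell. The median change of the 13 was -0.07. Osmr, the receptor subunit for oncostatin M, ran from 7.18 through 8.0 to 8.40 in KR and from 8.48 through 9.02 to 9.45 in KHR tumours, a rise of 1.11 ± 0.24 (limma adjusted p = 0.0203; 0.0521 without KHR 4). Its lowest arrays were KR 1 and KR 2, but KR 3, low in both alarmins too, stood at 8.12 in Osmr, above KR 6 at 7.88. Il17rc, an interleukin 17 receptor subunit, fell by 0.61 ± 0.15 (adjusted p = 0.0386), and by 0.39 with median polish, where it did not pass (adjusted p = 0.113). It passed without KR 4, KR 6 or KHR 1 and was lost without any other single array (0.0903 at most).

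**Figure D4:**
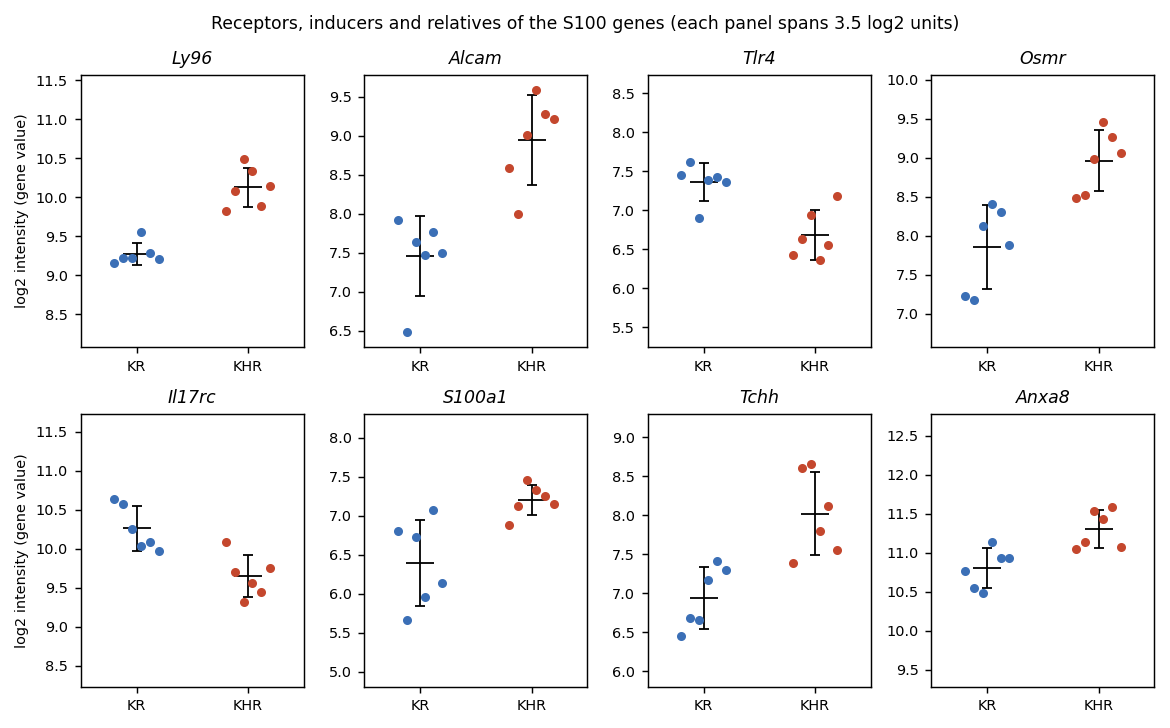
Log2 intensity (y axis) of 8 genes tied to the S100 family on 6 KR (blue) and 6 KHR (red) arrays, with the mean and SD of each group. Ly96, Alcam and Osmr do not overlap between the groups; S100a1 and Anxa8 did not pass (adjusted p = 0.0532 and 0.0649).

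Other S100 genes gave no call. Of 6 on the list, 0 passed, with 2 at an unadjusted p under 0.05 in limma and 3 in the exact permutation test, and only 2 of 6 lay above the median level. S100a1, the S100 protein of heart and skeletal muscle, ran from 5.66 through 6.43 to 7.07 in KR and from 6.88 through 7.20 to 7.45 in KHR tumours, a difference of 0.81 ± 0.21 (limma adjusted p = 0.0532). It passed without KR 1, KR 5 or KHR 1 (adjusted p down to 0.0213, and up to 0.115 without others), and when probesets were averaged (0.57, adjusted p = 0.0337). It also passed with array weights (limma adjusted p = 0.0476) and with trended and robust eBayes (0.0450). So it did among genes above the median level (0.0308) and genes with at least 3 probesets (0.0447). With median polish its difference was 0.44 (0.0705). Skeletal muscle genes, 13 measured with none past the threshold and 0 at an unadjusted p under 0.05 in limma or the exact permutation test, had means of 5.62 to 7.0 in KR and 5.69 to 8.19 in KHR tumours, and Actn3 had the smallest p among them (0.45 ± 0.23, adjusted p = 0.356). With the muscle mean as a covariate the difference of S100a8 was 0.93 ± 0.39 and that of S100a9 1.08 ± 0.42.

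Genes that fuse an S100 domain to long repeats form the scaffolds of hair and cornified cells. Of 6 measured, Tchh, trichohyalin of the inner root sheath and the filiform papillae of the tongue, was the 1 that rose, by 1.07 ± 0.24 (limma adjusted p = 0.0237), and none fell. It ran from 6.45 through 6.93 to 7.41 in KR and from 7.38 through 7.96 to 8.65 in KHR tumours. Leaving out KR 1, KR 2, KR 3 or KHR 3 ended the call (0.0615 at most). The median change of the 6 was -0.05, and over all genes 2.71% rose and 1.03% fell.

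The S100 genes flank the epidermal differentiation complex, the run of genes for the cornified envelope. From S100a1 to S100a10, in the order of GRCm38.p6, 64 genes were measured, with a median change of 0.0043. Of these 64 genes 5 rose and 2 fell, against 2.71% higher and 1.03% lower over all genes. The 5 were Pglyrp3, Prr9, Sprr4, Ivl and Tchh, and the 2 were Lor and Sprr3, named here after their values were seen. S100a8 and S100a9 had the largest SD among KR tumours of the 64, ahead of Sprr4 (0.90). S100a11 and S100a10, at the far end of the complex, had KR SDs of 0.20 and 0.16. Between the alarmins and Sprr4 lay genes of small KR SD, such as Lor (0.08), and genes of large KR SD, such as Sprr2f (0.77), Sprr2g (0.71), Sprr2b (0.70) and Sprr2e (0.69).

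**Figure D5:**
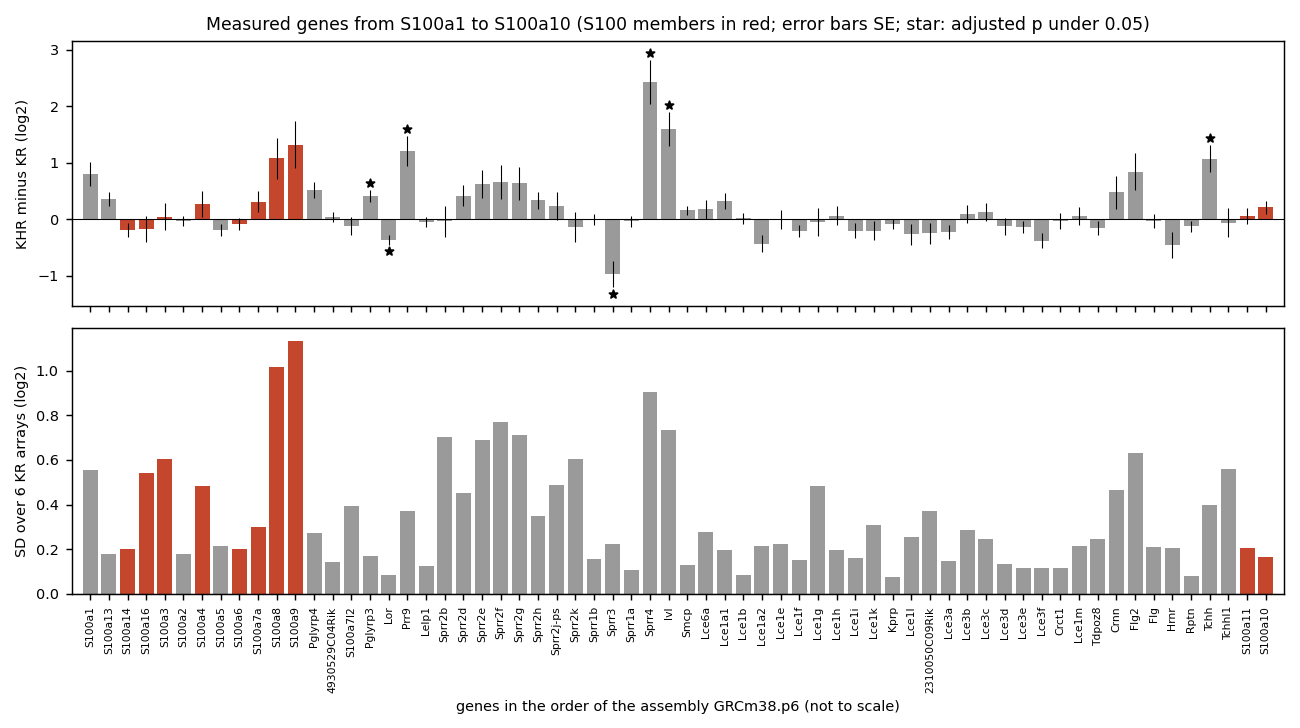
Change KHR minus KR with its SE (top, log2) and SD over the 6 KR arrays (bottom, log2) for the 64 measured genes from S100a1 to S100a10, in genome order and not to scale; S100 members are red and stars mark an adjusted p under 0.05. S100a8 and S100a9 have the largest KR SDs, 1.02 and 1.14, and no member carries a star.

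The squamous layers around the members changed in their own way. Of 15 suprabasal genes 1 rose and 6 fell, with a median change of -0.36: Krt13, the keratin of the oral suprabasal layer, fell by 1.26 ± 0.22, Ppl, periplakin, by 0.42 ± 0.09, and Tgm1, a cross-linking enzyme, by 0.46 ± 0.10, while Ivl, involucrin, rose by 1.59 ± 0.30 (limma adjusted p up to 0.0244; with median polish the change of Tgm1 was -0.25 and did not pass). The call of Ppl was lost without KHR 4 (adjusted p = 0.0529), and that of Tgm1 without KR 5, KR 6 or KHR 4 (0.0572 at most). Their mean was 11.89 to 12.24 in KR and 11.54 to 11.98 in KHR tumours, and KR 1 to 3 held both the highest and the lowest KR value. None of 11 basal genes passed, Cdh3 having the smallest p (0.41 ± 0.13, adjusted p = 0.115; it passed when probesets were averaged, 0.0386, with the muscle mean as a covariate, 0.0421, and without KHR 5, 0.0326), and none of 8 endothelial genes (Kdr 0.28 ± 0.15, adjusted p = 0.385) or 3 Schwann cell genes (Sox10 0.06 ± 0.08, adjusted p = 0.784). Of the endothelial genes 0 and of the Schwann cell genes 0 had an unadjusted p under 0.05 in limma or the exact permutation test, and of the basal genes 2 in each. Of the 15 suprabasal genes 11 did in limma and 10 in the exact permutation test, against 3662 and 3436 of 23102 genes. By adjusted p in limma, 2.71% of all genes rose and 1.03% fell, beside the 1 and 6 of this list.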

How the data were processed

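RNA of 12 tumours, 6 KR and 6 KHR, was read on 1 array each. The deposited values are log2 intensities of 269751 probesets. The submitters' processing notes name Partek and no version, and how background and arrays were adjusted, or on which build, is not given in the sources used here. The log base was taken from the range of values. Gene symbols came from the platform annotation in GEO and were brought up to date with RefSeq (GRCm38.p6): 233753 had 1 symbol, 5106 several and 30892 none, which gave 23102 genes. A gene's value is the median of its probesets with 1 symbol. The list entries Loricrin and Il36g were read under the table's symbols, Lor and Il1f9.

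Genes were tested with limma 3.58.1 in R 4.3.3 (lmFit and eBayes, all 12 arrays, no covariate, two-sided), with Benjamini-Hochberg adjustment over all genes and a threshold of 0.05; the script was tested on simulated data. The exact permutation test is two-sided, with 0.00216 as its smallest p. Correlations used 100000 permutations over 12 arrays or all orders of 6, adjusted over 8 relations; the alarmins' were read within KHR because their arrays fell into clusters. The members and the 15 lists were chosen with earlier results of these data known. Named are the members, the genes of each list past the threshold (at most the 4 with the smallest p) or else the 1 with the smallest p, and the 5 genes nearest to each alarmin; the rest are said to be outside this rule or serve as markers. Lists held genes of the S100 family, S100 fused-type genes, annexins, alarmin receptors, alarmin inducers, and markers of neutrophils, macrophages, fibroblasts, basal, suprabasal and stress keratinocytes, hair shaft, skeletal muscle, Schwann cells and endothelium. Listed genes without a probeset of 1 symbol are not analysed here. Alternatives were other probeset summaries, scalings, filters, eBayes settings, covariates, tests and thresholds, and leaving out each array. Figures were drawn with Python 3.11.15 and matplotlib 3.10.9. The number of arrays limits the precision.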

Additional observations from a re-analysis of the deposited data

Results flagged for a closer look

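One value of a member and one of a marker list lay far from the rest of their group, among 50 groups of 6 arrays looked at; a gap this large is found in about 1 of 20 such groups by chance alone. S100a4 stood at 7.89 on KHR 5, against 6.83 to 7.22 on the other KHR arrays. The mean of the endothelium list stood at 7.40 on KR 3, against 6.60 to 6.82 on the other KR arrays.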

How the results depend on the processing

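No member passed in the main analysis, and 1 member, S100a9, passed with the mean over probesets, with the test per probeset (1 of its 4) and on leaving out 1 array (0 to 1 members, the 1 without KR 5). The count of all genes was 863 and ran from 523 to 1085 on leaving out 1 array (531 without KR 2, 523 without KHR 4). It was 1445 with the mean over probesets, 555 with the Xist level as a covariate, 312 at an adjusted p under 0.01, 2389 probesets in the test per probeset and 0 with the exact permutation test (3436 at an unadjusted p under 0.05). With quantile normalization 56.8% of calls were higher in KHR tumours, against 72.4% in the main analysis. The deviations of same-numbered arrays from their group means correlated at -0.003 to 0.234, above 0.1 in 2 of 6 pairs. So few pairs cannot decide whether the numbers pair the tumours. Under the replicate block 925 genes and 0 members passed. Under this block the calls of Fbln1, Mertk, Tgm1 and Tlr4 had an adjusted p of 0.0508, 0.0775, 0.0578 and 0.0590. The sign of the difference was kept in all 24 alternatives for S100a7a, S100a8, S100a9, S100a10, S100a14 and S100a16. It changed in some for S100a3, S100a4, S100a6 and S100a11. The cause of these shifts was not tested. With no detection call, levels near the median of all genes may be background.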
